A study of Homo sapiens with 12 samples.

Results

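Docetaxel-resistant PC3 cells were compared with their parental line across all genes that passed a filter on low counts, 24128 of the 38611 in the deposited tables, in 6 of the study's 12 libraries. PC3 is an established human prostate cancer line from a metastasis. It was grown in Dulbecco's medium with fetal bovine serum. The 3 parental libraries are labelled as controls, and the 3 resistant libraries come from PC3 exposed to rising docetaxel, from a first dose of 0.5 to a final half-maximal inhibitory concentration of 15, in a unit the labels write as nm/ml and do not explain. The labels do not say whether the resistant cells were 1 clone or a pool, whether they were under docetaxel when RNA was taken, or whether the 3 libraries of a group came from separate cultures. The p-values therefore measure the spread between these libraries, which may be technical. The other 6 libraries were of parental and resistant DU145, a second prostate cancer line. Its first dose was 10 and its final half-maximal inhibitory concentration 1800, in the same unit. These 6 libraries entered the fit and 1 comparison at the end.

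Docetaxel binds beta-tubulin, stabilises microtubules and holds dividing cells at the spindle checkpoint, after which many of them die. Taxane resistance has been tied to export of the drug by ABC transporters, to a changed supply of tubulins and of proteins that bind microtubules, to changes in death and survival genes, and to loss of epithelial character. The gene groups below follow those roles, from the drug's target and the dividing cell to survival, adhesion, signalling, metabolism and lineage.

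Levels are CPM, counts per 1000000 reads, that is counts divided by a library total scaled with the TMM method, given as mean ± SD over the 3 libraries of a group. A change is the log2 ratio of resistant to parental, ± its standard error (SE). A gene is said to have risen or fallen where edgeR's quasi-likelihood test gave an adjusted p under 0.05, and every adjusted p below is from that test with Benjamini-Hochberg adjustment over all genes tested. The PC3 libraries held 64470198 to 72530254 counts, and 90.4% of the variance of their expressed genes lay on a component that separated parental from resistant. Resistant library 1 stood apart: its chi-square per gene against the other two of its group was 37.1 and 37.2, and theirs against each other 17.9. Mitochondrial genes supplied 5.82% ± 0.20 (SD, n = 3) of parental and 3.50% ± 0.04 of resistant counts. Gene positions are those of the deposited tables, which match GRCh38, and reads may have been counted without regard to strand, so values of a gene that overlaps another are uncertain. Of the genes named here, 296 were checked for overlap, and 167 overlap another gene. They include MSMP, RUNX3, DLC1, CD44, PLAU, TUBB3, TUBA1B, CDH1, SERPINB2, SOX9, AXL, EGFR, SPRY4, GATA2, ICAM1 and MT-CO3.

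The labelled line was checked first. CTNNA1, an actin-linking catenin known to be lost in PC3, read 2.91 and 2.23 CPM in parental and resistant cells. Of 107 protein-coding autosomal genes with at least 10 CPM in parental DU145 and under 0.3 CPM in parental PC3, 84 stayed under 0.3 CPM in resistant PC3 and 10 reached 1 CPM. RUNX3, a transcription factor, was the highest of those 10 at 19.2 ± 0.999 CPM. Among markers of other cell types, the leukocyte genes PTPRC, CD3D, CD3E and LYZ were too low to test. The summed level of 8 leukocyte markers was 48.1 to 62.6 CPM in parental and 76.4 to 87.6 CPM in resistant libraries, nearly all of it CD68 (52.4 and 79 CPM). Of the 4 leukocyte markers tested CD68 was called higher (adjusted p = 0.0317) and ITGAM lower. The call of CD68 ended without any 1 PC3 library but parental library 1 (adjusted p from 0.0571 to 0.124). The 10 fibroblast and smooth muscle markers summed to 127 to 138 CPM in parental and 15.3 to 22.7 CPM in resistant libraries, and 8 endothelial markers to 185 to 241 CPM and 61.1 to 83.2 CPM. Of the 6 endothelial markers tested 2 were called higher and 1, KDR, lower (median change 0.82), and none was called higher without any 1 parental library or resistant library 1. Most of the first of these sums was COL1A1 (103 and 11.5 CPM) and most of the second KDR (178 and 40.8 CPM). The part of these shifts in other results was not tested. In bulk RNA, fewer cells that carry a transcript and less of it per cell cannot be told apart.

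Nearly as many genes rose as fell. Of the 24128 genes, 10615 changed, 44.0% of those tested: 5405 rose (22.4%) and 5210 fell (21.6%). The median change over all genes tested was 0.00. Changes of at least 2-fold were called for 4115 genes (17.1%), 1728 higher and 2387 lower, and changes of at least 8-fold for 1267, of which 787 were lower. The typical call was small: the median size was 1.70-fold, and 37.6% of calls were under 1.5-fold. Of the 15917 genes with a mean of at least 1 CPM in either group, 31.6% rose and 29.8% fell, and the counts of the lists below are to be read against these shares. The 3 parental and 3 resistant libraries did not overlap for 54.4% of genes. The share was 71.5% of genes with a mean of at least 1 CPM in either group and 76.4% with at least 5 CPM. Remarks below that a gene's groups did not overlap are to be read against these shares. Without resistant library 1 the test called 9881 genes, 5112 higher and 4769 lower. Of genes with at least 0.5 FPKM, limma on log2(FPKM + 1) called 1561 at 2-fold or more.

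**Figure D1:**
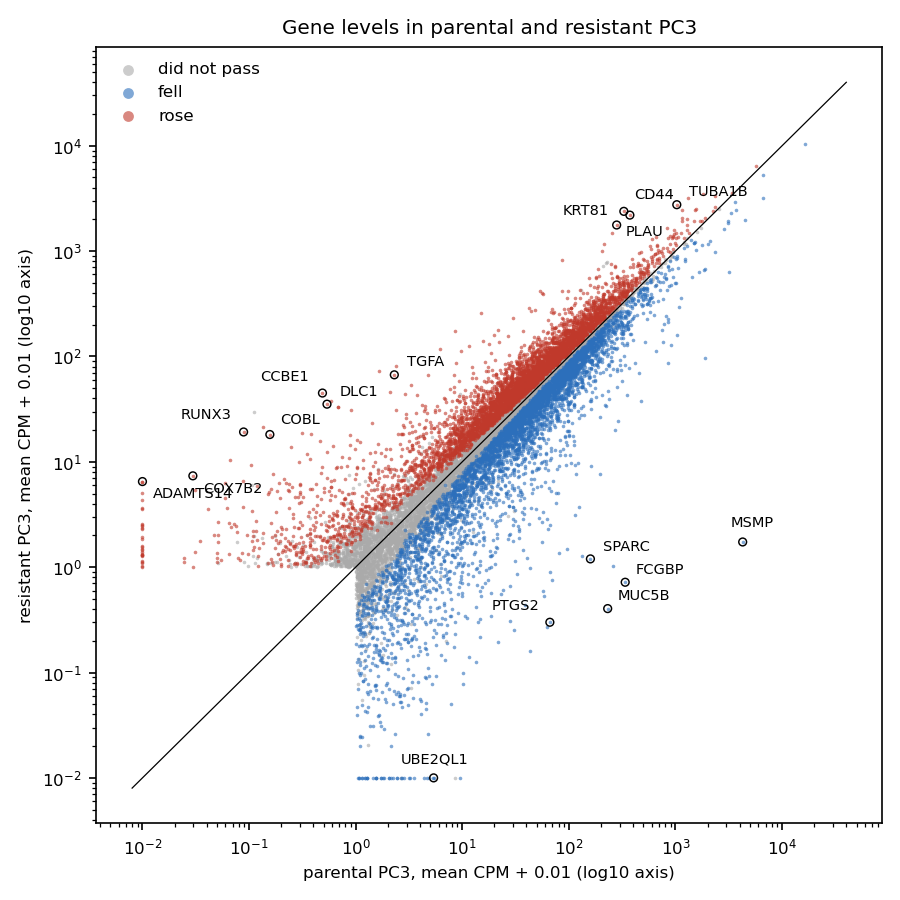
Mean CPM of each gene with at least 1 CPM in either group, parental PC3 on the horizontal and resistant PC3 on the vertical axis, both log10 with 0.01 added. Grey points did not pass the test, red points rose and blue points fell. The named genes are a choice of those described in the text. Among them, MSMP lies far below the diagonal at 4267 and 1.72 CPM and CD44 above it at 328 and 2383 CPM.

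The largest falls, taken among genes whose groups did not overlap, included those of the secreted proteins MSMP, MUC5B and FCGBP, all abundant in parental PC3. MSMP (chromosome 9, 35752990 to 35756613) encodes a small secreted protein of the microseminoprotein family and was among the most abundant transcripts of the parental line. It read 4082, 4525 and 4195 CPM in the 3 parental and 1.81, 2.2 and 1.16 CPM in the 3 resistant libraries, a change of -11.28 ± 0.25 (adjusted p = 5.02e-10). All 3 resistant libraries were low alike. The gene overlaps RGP1. The gel-forming mucin MUC5B (chromosome 11, 1223066 to 1262172) read 219, 214 and 260.5 CPM against 0.0449, 0.414 and 0.724 CPM (-9.17 ± 0.38). FCGBP, an IgG Fc-binding protein found in mucus, read 276, 288 and 448 CPM against 0.973, 0.828 and 0.327 CPM (-8.91 ± 0.44). Both mucus proteins were thus high in every parental and near 0 in every resistant library. PTGS2, the inducible cyclooxygenase of prostaglandin synthesis, fell from 66.3 to 0.29 CPM (-7.83 ± 0.70), the matrix protein SPARC from 159 to 1.19 CPM (-7.07 ± 0.56) and the secreted growth factor binding protein SCUBE3 from 257 to 1.02 CPM (-7.97 ± 0.31). The neuronal nitric oxide synthase NOS1 fell from 42.9 to 0.15 CPM and the potassium channel KCNK15 from 62.6 to 0.26 CPM. UBE2QL1 and the choline transporter SLC44A4 read 5.37 ± 1.52 and 5.26 ± 1.4 CPM in parental PC3 and had no count in any resistant library. Set against 3 counts summed over the resistant group, the floor used here, they were at least 358-fold and 349-fold lower. These bounds assume independent counts, and the variance between libraries at counts of 5 to 10 averaged 7.82 times the mean in parental and 8.43 times in resistant PC3, so they may be too high by about that factor.

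Fewer genes appeared than were lost. Altogether 46 genes went from under 0.05 CPM to at least 1 CPM, and 74 went the other way. The protease ADAMTS14 and the breast differentiation antigen gene ANKRD30A had no count in parental PC3 and read 6.48 ± 0.18 and 5.01 ± 0.324 CPM in resistant PC3, at least 423-fold and 328-fold higher. RUNX3 (chromosome 1, 24899511 to 24965010) read 0.237, 0 and 0 CPM in parental and 18.8, 20.3 and 18.4 CPM in resistant libraries (7.85 ± 0.50, adjusted p = 1.19e-07). It was thus absent or nearly so in parental cells and at a like level in each resistant library. CD33, a sialic acid-binding receptor of myeloid cells, rose from 0.125 to 21.6 CPM (7.39 ± 0.76). The cytochrome oxidase subunit COX7B2 rose from 0.0197 to 7.35 CPM, the actin nucleator COBL from 0.147 to 18.1 CPM, the matrix protein CCBE1 from 0.478 to 44.9 CPM and the decoy interleukin 13 receptor IL13RA2 from 0.0936 to 9.3 CPM. DLC1, which switches off small GTPases, read 0.68, 0.312 and 0.593 CPM against 35.9, 30.4 and 39.3 CPM (6.05 ± 0.18). Every resistant library was far above every parental one, but lack of overlap was a condition for naming the largest rises.

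By length-scaled level (FPKM), the largest rises were in CD44, PLAU, TUBA1B, KRT81 and IGFBP4. CD44 (chromosome 11, 35138882 to 35232402), the hyaluronan receptor, read 317, 328 and 338 CPM in parental and 2380, 2314 and 2455 CPM in resistant libraries. It went from 32.6 to 231 FPKM and rose 7.27-fold (2.86 ± 0.046, adjusted p = 1.3e-15). PLAU (chromosome 10, 73909177 to 73917494), the urokinase that activates plasminogen, read 387, 378 and 355 against 2225, 2168 and 2191 CPM (2.56 ± 0.041, adjusted p = 1.3e-15). In both genes the libraries of a group lay close together and the groups far apart. The insulin-like growth factor binding protein IGFBP4 rose from 254 to 1484 CPM and the hair keratin KRT81, which overlaps KRT86, from 281 to 1768 CPM. The cytoplasmic actins ACTB and ACTG1 rose 1.94-fold and 1.78-fold, so that neither holds as a constant reference here. Apart from MSMP, the largest falls in FPKM were all in mitochondrial genes, described further on.

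**Figure D2:**
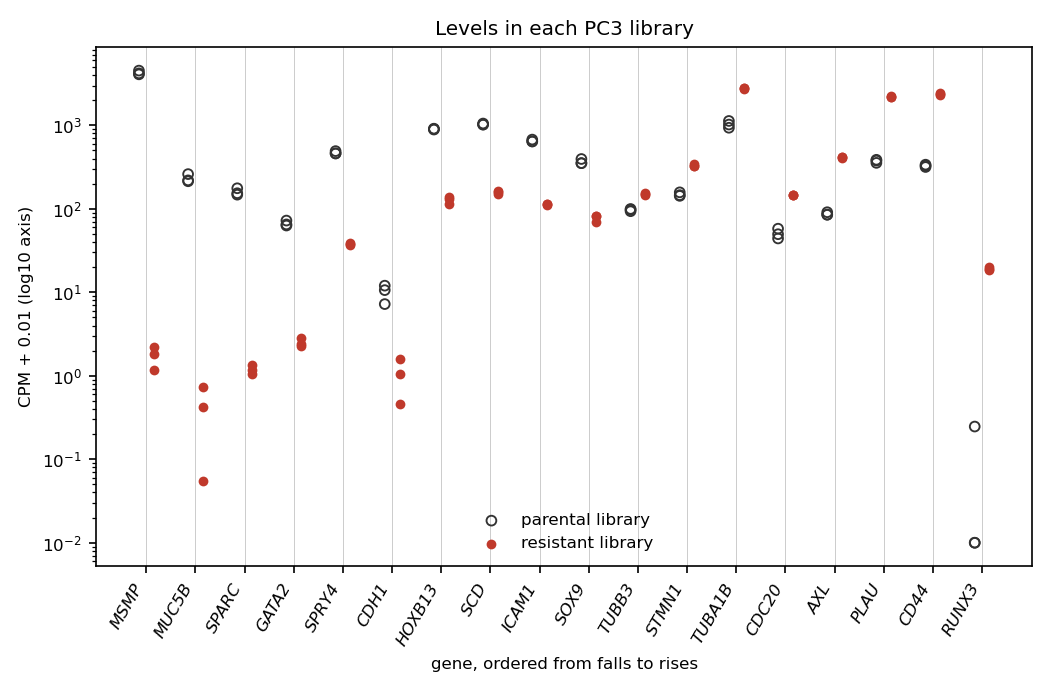
CPM of 18 genes in each of the 6 PC3 libraries, on a log10 axis with 0.01 added, with open circles for the 3 parental and filled circles for the 3 resistant libraries. The groups are apart in all 18, the log2 change runs from -11.28 in MSMP to 7.85 in RUNX3, and circles of a group spread most at low levels, as in resistant MUC5B and parental RUNX3.

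The drug's target was described through 9 beta-tubulins and 12 other tubulins. Of the beta-tubulins, 5 rose, 1 fell and 3 did not pass (median change 0.21, or 0.32 without resistant library 1). TUBB3 (chromosome 16, 89921392 to 89938761), the class III isotype whose high level has been tied to taxane resistance, read 93.6, 97.4 and 99.5 CPM in parental and 151, 145 and 155 CPM in resistant libraries. It rose 1.55-fold (0.63 ± 0.073, adjusted p = 2.69e-06), and its groups did not overlap. TUBB4B rose from 270.4 to 462 CPM and TUBB6 from 31 to 47.6 CPM, while TUBB, the main isotype, moved only from 1758 to 1913 CPM (0.12 ± 0.032, adjusted p = 0.0051). TUBB1, an isotype of platelets, rose from a low level, from 0.693 to 2.35 CPM. TUBB8, a maternal isotype of the oocyte, read 0.512 ± 0.101 CPM in parental PC3 and had no count in resistant libraries. Of the other tubulins, 4 rose, 1 fell and 7 did not pass (median 0.23). The alpha-tubulin TUBA1B (chromosome 12, 49127782 to 49131395) read 1022, 1128 and 936 against 2773, 2724 and 2770 CPM (1.42 ± 0.057, adjusted p = 8.23e-11). It gave the largest rise in tubulin transcript, from 286 to 747 FPKM. TUBA4A rose 2.33-fold and TUBA1C 1.49-fold, and TUBG1, a gamma-tubulin of the centrosome, 1.15-fold. Tubulin genes are near copies of each other and may share reads.

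Microtubule-binding proteins moved both ways: of 29 tested, 12 rose, 9 fell and 8 did not pass (median 0.26). STMN1, stathmin, which takes microtubules apart, rose from 149 to 332 CPM (1.16 ± 0.052, adjusted p = 5.89e-11). The plus-end protein MAPRE2 rose from 9.79 to 28 CPM, MAP9, which binds the spindle, from 27.4 to 77.1 CPM, and CKAP5, a microtubule polymerase, from 238 to 371 CPM. MAPT, tau, which binds along microtubules, fell from 33.5 to 9.23 CPM (-1.86 ± 0.11). STMN3 fell from 35 to 12.8 CPM, MAPRE3 from 22.4 to 13 CPM and DCLK1, a doublecortin kinase, from 0.989 to 0.046 CPM. The members therefore did not share a direction, in contrast to those of the next list.

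Genes of mitosis rose together. Of 28 genes of the spindle and its checkpoint, 26 rose, 0 fell and 2 did not pass, with a median change of 0.90. The counts were the same without resistant library 1. CDC20 (chromosome 1, 43358981 to 43363203), which activates the ubiquitin ligase that ends metaphase, read 49.6, 57.8 and 44.1 CPM in parental and 146, 148 and 145 CPM in resistant libraries (1.53 ± 0.074, adjusted p = 1.92e-10). CDCA8, borealin of the chromosomal passenger complex, rose from 27.9 to 83.3 CPM, the kinesin CENPE from 45.2 to 131 CPM, the checkpoint protein MAD2L1 from 46.5 to 117 CPM and the securin PTTG1 from 36.8 to 82 CPM. The mitotic kinases PLK1 and AURKA rose 2.19-fold and 2.08-fold and the cyclin CCNB1 2.21-fold. CENPA and MAD1L1 did not pass, with changes of 0.29 ± 0.14 and 0.34 ± 0.27, although CENPA passed without parental library 2 (adjusted p = 0.0131). DNA replication genes rose in the same way: 25 of 26 rose, 0 fell and 1, the polymerase subunit POLE, did not pass (median 0.66). The loading factors CDT1 and CDC6 rose 2.24-fold and 2.2-fold, the GINS subunit GINS2 2.46-fold and the helicase subunit MCM4 2.23-fold. Of 15 CDK inhibitors, G1 cyclins, their kinases and pocket proteins 6 rose and 5 fell, and the 5 that fell were CDK inhibitors. CDKN1A (p21) fell from 32.9 to 11.8 CPM (-1.48 ± 0.11, adjusted p = 1.11e-08), CDKN1C from 15.8 to 1.92 CPM, CDKN2B from 96 to 27.6 CPM, CDKN1B from 28.1 to 19.4 CPM and CDKN2A from 76.7 to 55.7 CPM. The inhibitor CDKN2C rose from 37 to 44.4 CPM, as did RBL1, a pocket protein that holds back E2F factors, from 41.2 to 60.8 CPM, and CDKN2D and RBL2 did not pass. The G1 kinases CDK4 and CDK6 rose 1.71-fold and 1.83-fold.

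Many mitotic genes carry a CCAAT box and, near the start, a cell cycle homology region, an element through which the DREAM complex is known to repress them. Promoter sequences from RefSeq (GRCh38.p14) are shown for 4 risen members to let both elements be seen. Bases are numbered back from the start site at -1, each run covers the last 130 bases before it, and capitals mark TTTGAA and CCAAT on either strand (ATTGG is CCAAT on the other strand).
CDC20 (chr1:43358851-43358980, plus strand): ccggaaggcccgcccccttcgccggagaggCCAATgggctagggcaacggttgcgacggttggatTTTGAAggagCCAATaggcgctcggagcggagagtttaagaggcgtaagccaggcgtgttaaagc
CDCA8 (chr1:37692386-37692515, plus strand): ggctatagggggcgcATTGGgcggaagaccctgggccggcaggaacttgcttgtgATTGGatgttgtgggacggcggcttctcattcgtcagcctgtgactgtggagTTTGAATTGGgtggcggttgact
CCNB2 (chr15:59105016-59105145, plus strand): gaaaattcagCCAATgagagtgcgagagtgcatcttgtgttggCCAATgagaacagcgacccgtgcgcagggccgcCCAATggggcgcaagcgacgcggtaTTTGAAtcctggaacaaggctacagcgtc
PLK1 (chr16:23678759-23678888, plus strand): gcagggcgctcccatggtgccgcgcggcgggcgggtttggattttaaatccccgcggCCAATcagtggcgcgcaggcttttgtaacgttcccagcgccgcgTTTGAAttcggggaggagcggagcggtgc

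Of the mitosis members tested, 22 had a RefSeq promoter in the table used. In the 250 bases before the start, TTTGAA stood on either strand in 12 of them (54.5%), against 13.6% of all 27305 promoters and 8.84% of those of tested protein-coding genes. CCAAT stood in 17 of the 22 (77.3%), against 33.0% of all promoters. Of the 12 members with TTTGAA, 11 rose, a share near that of the whole list, where 26 of 28 rose. Of 23 replication members, 1 held TTTGAA (4.35%), and 2 held TTTCGCGC, an E2F site form (8.70% against 0.47% of all promoters). These are matches of letters in a window and no measure of binding, and TTTGAA and CCAAT can overlap, by 1 base in CDCA8.

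Of 11 drug export genes 2 rose, 4 fell and 5 did not pass. The median change was -0.64, but -0.04 with limma on log2(FPKM + 1). ABCB1, the P-glycoprotein that exports taxanes, had 13, 11 and 0 counts in the parental and 0, 7 and 0 counts in the resistant libraries (-1.75 ± 1.44, adjusted p = 0.384). Its level was near the floor of detection in both groups. ABCC1 read 104 and 104 CPM (-0.00 ± 0.049) and ABCG2 0.0345 and 0.0159 CPM. ABCC2 rose from 0.459 to 2.57 CPM and ABCC4 from 40.8 to 59.7 CPM. ABCC3, which exports organic anions, fell from 352 to 42.6 CPM (-3.05 ± 0.079, adjusted p = 3.21e-13), and ABCC5 and ABCC10 fell 1.39-fold and 1.56-fold. Of 7 genes of taxane uptake and oxidation, 3 rose and 0 fell: the uptake carrier SLCO1B3 rose from 36.1 to 57.7 CPM and the oxidase CYP3A5 from 4.79 to 8.16 CPM. The oxidase CYP1B1 read 0.331 and 0.748 CPM (adjusted p = 0.0388), and its call ended, with adjusted p from 0.0667 to 0.158, without parental library 1 or 2 or resistant library 1 or 3.

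Survival and death genes were mixed. In the BCL2 family 3 of 16 rose, 6 fell and 7 did not pass (median 0.04). The protective member BCL2A1 (chromosome 15, 79960892 to 79971196) read 3.24, 2.11 and 2.85 CPM in parental and 16.3, 20.1 and 18.4 CPM in resistant libraries (2.74 ± 0.44, adjusted p = 0.000221), and its groups did not overlap. BCL2L1 (BCL-XL) rose from 358 to 419.8 CPM, while MCL1 fell from 328 to 270.4 CPM and BCL2 read 3.79 and 5.12 CPM (0.44 ± 0.34, adjusted p = 0.346). Among killers of the family, BMF, which senses a disturbed cytoskeleton, fell from 30.7 to 5.4 CPM (-2.51 ± 0.22), BOK from 37.3 to 14.6 CPM, BAD from 57.1 to 37.4 CPM and BAK1 from 59.7 to 44.9 CPM. BIK, another killer, was called higher, at 1.41 and 2.68 CPM (adjusted p = 0.024; 0.0687 to 0.088 without parental library 1 or 3 or resistant library 2 or 3), and the remaining 6 killers did not pass. The protective BCL2L2 fell from 70.2 to 40.6 CPM. Of 20 death receptors, caspases and inhibitors, 7 rose and 7 fell (median -0.05). CASP4 rose from 15.1 to 51 CPM and the TRAIL receptor TNFRSF10A from 21.3 to 55.5 CPM. CASP10 fell from 9.03 to 3.14 CPM and CFLAR, a decoy of caspase 8, from 72.2 to 39.6 CPM.

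**Figure D3:**
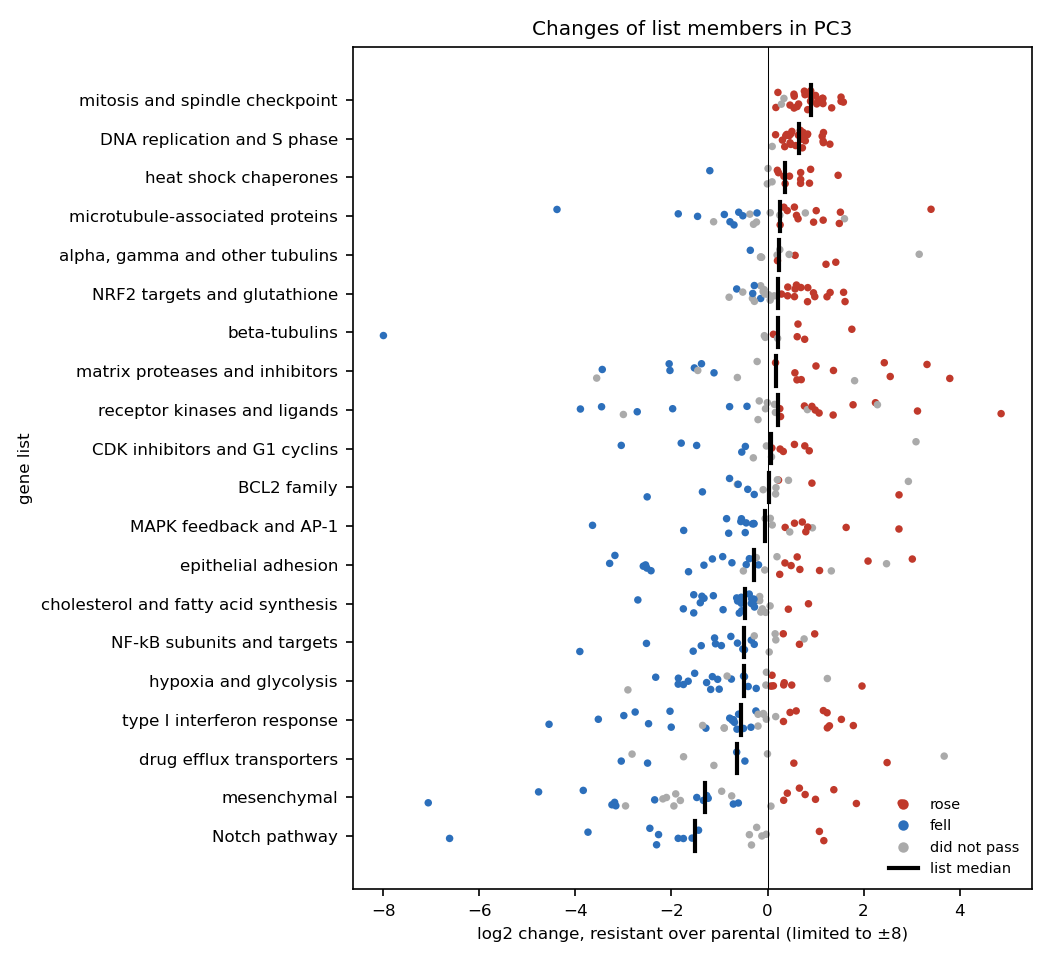
Log2 change, resistant over parental, of each tested member of 20 gene lists, with red for members that rose, blue for those that fell, grey for those that did not pass and a black bar at the list's median. Points beyond 8 in size are drawn at 8, and medians run from 0.90 for mitosis to -1.50 for the Notch pathway.

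Of 29 epithelial adhesion genes, 14 fell, 8 rose and 7 did not pass the test (median -0.28, or -0.46 without resistant library 3). CDH1 (chromosome 16, 68737292 to 68835537), E-cadherin, read 7.21, 10.6 and 12 CPM in parental and 1.05, 1.58 and 0.454 CPM in resistant libraries (-3.29 ± 0.33, adjusted p = 7.97e-06). Its groups did not overlap. The tight junction genes CLDN1, CLDN3, OCLN and TJP3 fell 5.71-fold, 6.01-fold, 3.13-fold and 9.05-fold, and the desmosome genes DSP, DSC2 and JUP 5.38-fold, 2.5-fold and 2.22-fold. GRHL1, a transcription factor of epithelia, fell from 8.95 to 1.54 CPM. EPCAM moved less, from 9.91 to 7.28 CPM (-0.44 ± 0.11). In the other direction PKP1, a desmosomal plakophilin, rose from 455 to 965 CPM and CDH3, P-cadherin, from 1.63 to 6.98 CPM. ESRP1 rose most of this list, and CGN, ESRP2, PKP3, DSG2 and TJP1 rose as well. Of 8 keratins 3 rose and 4 fell: KRT7 rose from 37.2 to 175 CPM and KRT80 from 10.1 to 41.7 CPM, while the luminal pair KRT8 and KRT18 fell from 243 to 66.3 CPM and from 211 to 157 CPM and KRT19 from 562 to 339.7 CPM.

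The repressors of epithelial genes rose in part. SNAI2, also called SLUG, read 4.07, 3.45 and 3.81 CPM in parental and 43.2, 44.5 and 42.4 CPM in resistant libraries (3.52 ± 0.28, adjusted p = 1.51e-07). ZEB2 rose from 0.42 to 3.92 CPM and ZEB1 from 44.4 to 72.4 CPM (0.70 ± 0.092). TWIST2 fell from 2.57 to 0.986 CPM, TCF4 from 51.4 to 24.9 CPM and FOXC2, at 0.291 ± 0.235 CPM in parental PC3, had no count in resistant PC3, while SNAI1 read 0.858 and 1.62 CPM and TWIST1 10.6 and 13.8 CPM without passing. In all 3 of 10 rose and 3 fell (median -0.20). The call of TCF4 ended without any 1 of the 6 PC3 libraries (adjusted p from 0.0512 to 0.0899) and in DESeq2's Wald test (adjusted p = 0.425), and that of FOXC2 without any 1 but parental library 2 (adjusted p from 0.0532 to 0.0753). SNAI1 passed without parental library 2 (adjusted p = 0.00661). SNAI and ZEB proteins bind the E-box CACCTG. Its letters stood on either strand in 7 of 18 epithelial promoters in the table (38.9%), against 17.5% of all promoters. Of the 7, 4 fell, 2 rose and 1 did not pass. A pair of those that fell is shown, with the E-box in capitals, DSP over bases -200 to -71 and OCLN over -100 to -1.
DSP (chr6:7541471-7541600, plus strand): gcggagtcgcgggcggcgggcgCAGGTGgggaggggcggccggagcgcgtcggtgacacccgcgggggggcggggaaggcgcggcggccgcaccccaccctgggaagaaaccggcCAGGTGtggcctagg
OCLN (chr5:69492447-69492546, plus strand): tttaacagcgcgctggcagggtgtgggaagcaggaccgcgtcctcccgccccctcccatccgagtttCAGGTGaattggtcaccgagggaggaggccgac

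In the mesenchymal list the test called 13 of 30 genes lower and 8 higher, and 9 missed its threshold. The median change was -1.30, or -0.84 without parental library 2. SPARC, given above, fell most, then the collagen COL5A1, from 31.2 to 1.14 CPM, and the proteoglycan BGN, from 0.395 to 0.0265 CPM. The call of BGN ended without parental library 2 or resistant library 1 or 3 (adjusted p from 0.0576 to 0.0662). The collagen VI chains COL6A1, COL6A2 and COL6A3 fell from 3208 to 629 CPM, from 1835 to 661 CPM and from 186 to 79.2 CPM. COL1A1 fell from 103 to 11.5 CPM, COL3A1 from 8.27 to 0.87 CPM and the collagen crosslinker LOX from 31.4 to 3.46 CPM. Fibronectin (FN1) fell from 1420 to 562 CPM and vimentin (VIM) from 1049 to 688 CPM (-0.61 ± 0.033). Among those that rose were the matrix glycoprotein TNC, from 186 to 672 CPM, S100A4, from 34.4 to 89.5 CPM, CDH11, LOXL2, FBN1, CALD1 and N-cadherin (CDH2), the last from 80.9 to 108 CPM. N-cadherin's change was small (0.41 ± 0.12, adjusted p = 0.00915), and its call ended without parental library 1 or resistant library 3 (adjusted p = 0.0539 and 0.055). That of CDH11 ended in DESeq2's Wald test (adjusted p = 0.0526).

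Of 21 matrix proteases and inhibitors 10 rose and 6 fell. Their median change was 0.17, and 0.57 without parental library 3 or 0.37 without resistant library 1. Beside PLAU, its receptor PLAUR rose from 39.2 to 101 CPM, the second plasminogen activator PLAT from 215 to 1158 CPM (2.43 ± 0.079) and the inhibitor SERPINB2 13.9-fold. SERPINB2 read 5.65, 4.01 and 4.63 CPM in parental and 66.1, 67.1 and 65.5 CPM in resistant libraries. Both activators and this inhibitor thus stood higher in every resistant library. The metalloproteases differed: MMP14 rose from 148 to 227 CPM and ADAMTS1 from 8.65 to 86.5 CPM, while MMP13 fell from 9.69 to 2.34 CPM and MMP15 from 3.03 to 0.271 CPM. SERPINE2, an inhibitor of plasminogen activators, fell from 132 to 60.9 CPM. Of 23 integrins and laminins 8 rose, 9 fell and 6 did not pass. ITGA2 and ITGA5 rose 1.97-fold and 1.62-fold, and ITGA1 fell from 113 to 9.31 CPM (-3.61 ± 0.13), ITGB5 from 111 to 34.2 CPM and ITGAV from 176 to 73.6 CPM. The laminin chain LAMB3 rose from 56 to 399 CPM and LAMA4 fell from 17.4 to 0.747 CPM. Of 11 progenitor markers 6 rose and 2 fell: ALDH1A3 rose from 398 to 703 CPM, while SOX9 (chromosome 17, 72121020 to 72126416) read 352, 352 and 395 CPM in parental and 81.5, 82.3 and 69.1 CPM in resistant libraries (-2.24 ± 0.091, adjusted p = 1.01e-10) and LGR5 fell from 4.78 to 0.101 CPM.

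Of 26 receptor kinases and their ligands, 11 rose, 6 fell and 9 did not pass (median 0.21). AXL (chromosome 19, 41219223 to 41261766), the receptor of GAS6, read 91, 85.4 and 84.8 CPM in parental and 417, 402 and 422 CPM in resistant libraries (2.25 ± 0.037, adjusted p = 1.3e-15). EGFR read 88.9, 89.6 and 84.5 against 221, 224 and 233 CPM (1.37 ± 0.037, adjusted p = 2.67e-13), and neither gene's groups overlapped. The EGF receptor ligand TGFA rose from 2.29 to 66.9 CPM (4.87 ± 0.11), EREG from 1.15 to 3.98 CPM and HBEGF from 17.8 to 35.5 CPM. AREG and BTC read 12.3 and 13.8 CPM and 6.75 and 7.46 CPM without passing. The sister receptors fell, ERBB2 from 64.2 to 37.2 CPM and ERBB3 from 35 to 5.35 CPM, with ERBB4 near 0 in both groups. MET rose from 498 to 601 CPM and its ligand HGF from 0.351 to 3.07 CPM. The receptors EPHB2 and DDR1 fell 14.9-fold and 3.93-fold, and the ligand PDGFB from 36.3 to 3.31 CPM.

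Of the feedback genes downstream of these receptors, several fell and others rose. SPRY4, an inhibitor that MAPK signalling induces, read 461, 461 and 491 CPM in parental and 37.4, 36.7 and 38.8 CPM in resistant libraries (-3.64 ± 0.11, adjusted p = 1.84e-11). The ERK phosphatase DUSP6 fell from 258 to 76.8 CPM and the ETS factors ETV4 and ETV5 1.46-fold and 1.75-fold. The AP-1 members JUN and FOSL1 rose 1.79-fold and 1.65-fold, ATF3 from 1.5 to 9.99 CPM and the phosphatase DUSP1 from 7.21 to 22.4 CPM. The feedback genes SPRY2, DUSP4 and IER3 rose as well, while SPRY1, SPRED1 and SPRED2 fell. Over this list 7 of 23 rose and 11 fell (median -0.05). Of 16 YAP and TEAD genes 6 rose and 6 fell: the target CCN1 (CYR61) rose from 41.8 to 290.1 CPM and the coactivator WWTR1 (TAZ) fell from 772 to 205 CPM. In the insulin-like growth factor axis 4 of 14 rose and 6 fell. The binding proteins IGFBP4, IGFBP3 and IGFBP6 rose 5.85-fold, 3.21-fold and 2.36-fold and IGFBP5 fell from 56.9 to 0.579 CPM. GATA2 (chromosome 3, 128479427 to 128493201), a transcription factor that has been tied to chemotherapy resistance in prostate cancer through IGF2, read 63, 65 and 72.3 CPM in parental and 2.29, 2.79 and 2.37 CPM in resistant libraries (-4.75 ± 0.11, adjusted p = 5.06e-14), while IGF2 rose from 1.77 to 5.34 CPM (adjusted p = 0.0179). The call of IGF2 ended, with adjusted p from 0.054 to 0.0771, without parental library 1 or 3 or resistant library 2. The receptors IGF1R and INSR and the adaptor IRS1 fell 2.01-fold, 1.52-fold and 1.95-fold.

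In the TGF-beta list 8 of 23 rose and 8 fell (median 0.00). The feedback targets PMEPA1 and SMAD7 fell from 22.9 to 0.542 CPM and from 4.46 to 1 CPM, and SMAD6 and ID2 5.86-fold and 8.67-fold, while ID1 and the activin subunit INHBA rose 3.1-fold and 3.66-fold. Of 16 Notch genes 9 fell, 2 rose and 5 did not pass (median -1.50). The receptors NOTCH1 and NOTCH2 rose from 29.4 to 66.3 CPM and from 126 to 266 CPM, and NOTCH3 fell from 20.8 to 1.56 CPM. The targets HES1 and HEY1 fell from 25.7 to 4.7 CPM and from 138 to 27.8 CPM. Of 30 Wnt genes 7 rose and 11 fell (median -0.11, or -0.02 without parental library 3). The secreted inhibitor DKK1 rose from 271 to 705 CPM and the factor LEF1 from 0.078 to 3.71 CPM, and the feedback gene AXIN2 fell from 23.3 to 10.2 CPM.

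Prostate lineage genes were split by gene. The androgen-responsive gene FKBP5 rose from 23.6 to 38.5 CPM, and TMPRSS2, another, fell from 36.8 to 1.43 CPM (-4.68 ± 0.46). HOXB13, the prostate homeobox factor, read 890.1, 901 and 912 CPM in parental and 132, 139.5 and 113 CPM in resistant libraries (-2.81 ± 0.27, adjusted p = 2.36e-05), and FOXA1 fell from 135 to 51.5 CPM. Of 12 members 3 rose, 5 fell and 4 did not pass (median -0.43). Of 6 neuroendocrine markers 1 rose, PEG10 (from 219.9 to 318 CPM), and 1 fell, ENO2 (from 302 to 83.2 CPM).

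Of 21 NF-kB subunits and targets 3 rose, 13 fell and 5 did not pass (median -0.48). The subunits NFKB2, RELB and RELA fell 2.6-fold, 2.12-fold and 1.54-fold and the inhibitor NFKBIE 2.92-fold. ICAM1, the leukocyte adhesion molecule, read 642, 641 and 675 CPM in parental and 114, 112 and 115 CPM in resistant libraries (-2.52 ± 0.043, adjusted p = 1.84e-15). Its groups lay far apart. TNFAIP3 (A20), a brake on the pathway, rose from 25.4 to 50.3 CPM. The letters GGG, any 2 bases and TTTCC, an NF-kB site form, stood in 7 of 19 promoters of this list (36.8% against 1.73% of all), and of the 7, 3 fell, 1 rose and 3 did not pass. Of 26 chemokines and cytokines 7 rose and 10 fell (median -0.21, or -0.13 without resistant library 1). The colony-stimulating factors CSF3 and CSF2 rose from 8.31 to 66.5 CPM and from 1.15 to 10.3 CPM, IL1B from 104 to 286 CPM and IL18 from 20.9 to 66.7 CPM. IL6 stayed low, 0.41 and 0.993 CPM (1.28 ± 0.42, adjusted p = 0.0202), a call that ended without parental library 1 or 3 or resistant library 3 (adjusted p from 0.0806 to 0.144), and CXCL8 moved little, from 163 to 187 CPM (0.19 ± 0.05). IL32 fell from 42.4 to 2.57 CPM, CXCL6 from 280.2 to 75.9 CPM and the death ligand TNFSF10 (TRAIL) from 5.88 to 0.276 CPM.

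Of 36 type I interferon response genes, 9 rose, 18 fell and 9 did not pass (median -0.55). IFI27 fell from 16.4 to 0.7 CPM (-4.55 ± 0.35), OAS1 from 29.8 to 3.74 CPM, OAS2 from 55.9 to 10.0 CPM, MX1 from 50.5 to 12.6 CPM, IFITM1 from 46.8 to 6.92 CPM and BST2 (tetherin) from 3.92 to 0.339 CPM. The factors STAT2 and IRF9, which carry the signal, fell 1.55-fold and 4.09-fold. IFI44 rose from 8.7 to 30.0 CPM, SAMD9 from 26.9 to 78.1 CPM and DDX60 from 11.8 to 28.8 CPM. Without resistant library 1, 8 were higher and 14 lower. Of 19 genes of MHC class I presentation 5 rose and 9 fell (median -0.17): HLA-E fell from 205 to 111 CPM, the peptide transporter TAP1 from 58.1 to 27.4 CPM and tapasin (TAPBP) from 165 to 85.1 CPM, and the trimming peptidases ERAP1 and ERAP2 rose 1.36-fold and 1.92-fold. HLA genes are near copies of each other and may share reads.

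Of 30 genes of cholesterol and fatty acid synthesis 2 rose, 21 fell and 7 did not pass (median -0.46). SCD (chromosome 10, 100347233 to 100364826), which desaturates fatty acids, read 1020, 1051 and 1024 CPM in parental and 160.2, 165 and 150.4 CPM in resistant libraries (-2.70 ± 0.067, adjusted p = 3.31e-13). The desaturases FADS2 and FADS1 fell from 811 to 241 CPM and from 348 to 135 CPM. The master regulators SREBF2 and SREBF1 fell 2.9-fold and 2.19-fold and INSIG1, which holds them back, 2.64-fold. EBP and NSDHL, late enzymes of the sterol path, rose 1.81-fold and 1.35-fold. SREBF2 held a sterol regulatory element form, TCACNCCAC on either strand, in the 250 bases before its start, alone among 23 members with a promoter in the table (4.35% against 0.88% of all promoters). It is shown over bases -180 to -81 with the element in capitals.
SREBF2 (chr22:41832925-41833024, plus strand): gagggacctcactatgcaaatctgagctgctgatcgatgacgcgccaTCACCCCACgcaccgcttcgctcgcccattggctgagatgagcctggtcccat

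Of 29 glycolysis and hypoxia genes 7 rose, 16 fell and 6 did not pass (median -0.50). The number that rose was 4 without parental library 1, with upper-quartile scaling, with no filter on low counts and with limma. NDRG1, a hypoxia-induced gene, fell from 1125 to 358 CPM, the glucose transporter SLC2A1 (GLUT1) from 165 to 45.5 CPM (-1.86 ± 0.058), PFKFB4 and PFKFB3 5.02-fold and 2.86-fold and PDK1 2.01-fold. ENO1, an abundant enzyme of the path, rose from 2325 to 3297 CPM. HIF1A itself rose from 604 to 769.5 CPM and its paralogue EPAS1 from 9.36 to 36.6 CPM.

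Antioxidant genes rose more often than they fell. Of 30 NRF2 targets and glutathione genes 15 rose, 4 fell and 11 did not pass (median 0.22, or 0.35 and 0.34 without parental library 1 or 2). GCLM (chromosome 1, 93885199 to 93909456), the regulatory subunit that sets glutathione synthesis, read 21.4, 19.1 and 21.5 CPM in parental and 62.3, 61.5 and 66.2 CPM in resistant libraries (1.61 ± 0.078, adjusted p = 1.25e-10). Thioredoxin (TXN) rose from 83.7 to 207 CPM, NQO1 from 93.2 to 185 CPM, the glutathione reductase GSR from 61.7 to 119.8 CPM, and TXNRD1 from 941 to 1401 CPM. The NRF2 gene itself, NFE2L2, read 68.5 and 62 CPM. The antioxidant response core TGACNNNGC stood in 6 of 23 promoters (26.1% against 11% of all). Of the 6, 3 rose and 3 did not pass. The core is shown in capitals for GCLM, over -100 to -1, where it reads on the other strand, and for TXNRD1, over -150 to -51.
GCLM (chr1:93909431-93909530, minus strand): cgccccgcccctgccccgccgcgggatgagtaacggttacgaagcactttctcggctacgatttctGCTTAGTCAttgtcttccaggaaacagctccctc
TXNRD1 (chr12:104215629-104215728, plus strand): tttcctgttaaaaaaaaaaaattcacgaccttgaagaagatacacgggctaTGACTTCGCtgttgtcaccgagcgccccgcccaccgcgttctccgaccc

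Of 15 cytosolic and mitochondrial heat shock chaperones 11 rose and 1 fell (median 0.37): HSPH1 rose from 128 to 355 CPM, DNAJB1 from 179 to 329 CPM, HSP90AA1 from 1537 to 2477 CPM and HSPA8 from 977 to 1577 CPM, and BAG3 fell from 312 to 135 CPM. In the endoplasmic reticulum 4 of 20 rose, 8 fell and 8 did not pass (median -0.15). HSPA5 (BiP) rose from 693 to 827 CPM, and EDEM1, of the disposal of misfolded proteins, fell from 247 to 98.6 CPM. Of 19 ATF4 targets and amino acid genes 9 rose and 7 fell (median 0.17), among them the amino acid carrier SLC7A5, up from 80.0 to 253 CPM, and the cystine carrier SLC7A11, down from 171 to 65.8 CPM.

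All 13 protein-coding genes of the mitochondrial genome fell, by a median of -0.68. MT-CO3, a cytochrome oxidase subunit, read 4470, 4250 and 4753 CPM in parental and 1979, 1974 and 1955 CPM in resistant libraries (-1.19 ± 0.042, adjusted p = 4.37e-12). MT-CO1, the most abundant of them in counts, fell from 16519 to 10363 CPM (-0.67 ± 0.023), and MT-ND4L, of complex I, least, from 1539 to 1221 CPM (-0.33 ± 0.033). In every one the groups were apart, as in the mitochondrial share given above. Counts of mitochondrial genes also depend on how RNA was taken and selected, and the part of that was not tested. Replication-dependent histones, whose transcripts mostly lack a poly(A) tail and so are caught poorly by oligo(dT), gave 0 higher and 5 lower of 11. The largest fall among those above 10 CPM was in H2AC6, from 39 to 16.8 CPM.

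**Figure D4:**
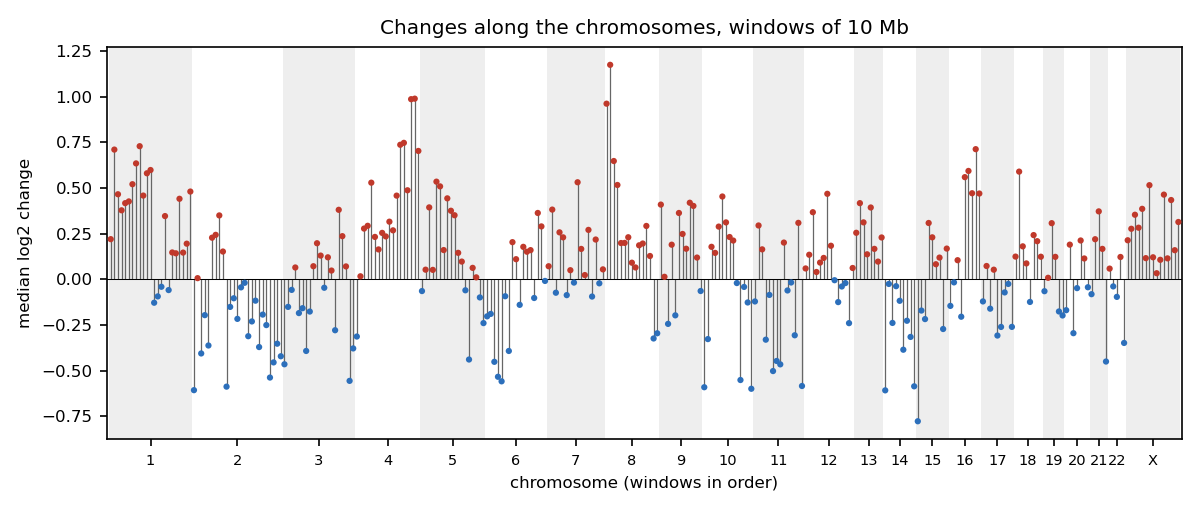
Median log2 change, resistant over parental PC3, of the genes in each window of 10 Mb with at least 10 genes, in order along each chromosome, chromosomes in turn from 1 to X and shaded by turns. The mitochondrial genome, counted among the 297 windows of the text, is not drawn. Most windows lie within 0.25 of 0, and runs of high windows stand on chromosomes 1, 4 and 8.

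Changes were also described by position, over 15219 genes with at least 1 CPM. Of 297 windows of 10 Mb with at least 10 such genes, 173 had a median change between -0.25 and 0.25 and 39 exceeded 0.5 in size. The mitochondrial genome was counted as a window (median -0.53). The highest median was that of chromosome 8 from 10 to 20 Mb (1.17, 23 of 30 genes higher and 2 lower). Next came chromosome 4 from 170 to 180 Mb (0.99, 13 of 16 higher) and from 160 to 170 Mb (0.99, 14 of 19), then chromosome 8 from 0 to 10 Mb (0.96, 16 of 21 higher). Neighbouring windows were thus high together. The lowest were chromosome 15 from 20 to 30 Mb (-0.78, 22 of 34 lower) and chromosome 14 from 20 to 30 Mb (-0.61, 61 of 93 lower). Over whole chromosomes, 51.8% of the 517 genes of chromosome 14 fell and 15.7% rose, while on chromosome 1 48.3% of 1514 rose and 19.6% fell. On chromosome 1 all 12 windows from 0 to 120 Mb had medians above 0, from 0.22 to 0.73. DLC1 lies in the highest window. In DU145 the same windows had medians of 0.39 and 0.17 on chromosome 8, -0.68 and -0.25 on chromosome 4, -0.01 on chromosome 15 and 0.53 on chromosome 14. No copy number was measured, and these medians are levels of RNA.

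The change in PC3 was last set against that in DU145, by the difference of the changes in the same fit. It passed for 10150 genes (42.1%). In DU145 itself 9554 genes changed (39.6%). Of the PC3 calls 30.6% were called in DU145 in the same direction and 27.5% in the opposite one, and the former were 33.9% of the DU145 calls. Of 25 genes described in both lines, 17 differed, 10 changed alike in both and 11 changed in opposite directions. CD44, EGFR, MET and SNAI2 rose in both, with differences that did not pass (CD44 0.15 ± 0.06, adjusted p = 0.0619; EGFR 0.02 ± 0.052; SNAI2 -0.54 ± 0.46). PLAU rose in both by nearly the same amount (2.56 ± 0.041 in PC3 and 2.77 ± 0.042 in DU145), although the small difference passed (-0.22, adjusted p = 0.0045). CDH1 fell in PC3 and rose in DU145 (4.29 ± 0.31), as did SOX9 (4.37 ± 0.13), EPCAM, MCL1 and CDKN1A. AXL, STMN1, ZEB1, CDH2, CXCL8 and IL6 rose in PC3 and fell in DU145. ABCB1, near 0 in both PC3 groups, rose in DU145 (6.65 ± 0.54), and the difference passed (-8.40 ± 1.61, adjusted p = 0.00191).

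**Figure D5:**
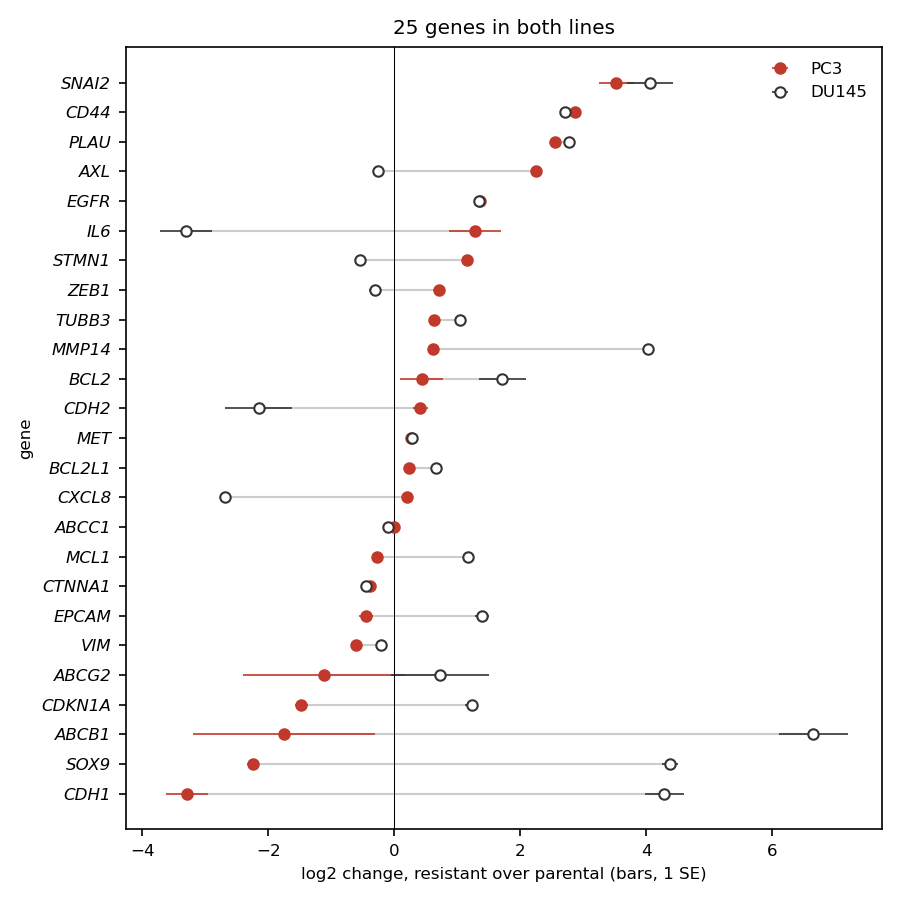
Log2 change, resistant over parental, of 25 genes in PC3 (filled circles) and DU145 (open circles), with bars of 1 SE, genes ordered by the change in PC3. Circles lie close together for CD44, PLAU, EGFR and MET and on opposite sides of 0 for SOX9, CDH1, AXL and CDKN1A.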

How the data were processed

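RNA was sequenced from 3 parental and 3 docetaxel-resistant PC3 libraries, and from 6 of DU145 that shared the fit. Libraries were built from polyadenylated RNA captured on oligo(dT) beads, with dUTP in the second strand, per the labels' protocols. The authors deposited a whole-number read count and an FPKM value for each of 38611 genes, and per the submitters' processing notes used HISAT2 2.0.4, cutadapt 1.9 and StringTie 1.3.4d, and both edgeR and DESeq2. These notes name hg18, but of 37385 genes also in a GENCODE table on GRCh38, 37377 overlapped their position there. Which program counted reads, whether it used strand and from which annotation is not given in the sources used here.

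Counts were filtered with filterByExpr, scaled with TMM and fitted with 1 mean per group over all 12 libraries (8 residual degrees of freedom) by edgeR 4.0.16 (robust glmQLFit, two-sided quasi-likelihood F test, Benjamini-Hochberg adjustment over 24128 genes) in R 4.3.3. The SE of a change is its size over the square root of F. On simulated counts of 22938 genes in this design the fit recovered 73 of 100 genes changed 2-fold and 89 of 100 changed 4-fold. It also called 8 genes that were not changed. No other genes were changed there, while 44.0% were called in the data, so these rates may not hold for the data. Promoters came from RefSeq (GRCh38.p14), which held 553 of the 747 listed genes tested.

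The genes, 42 lists and tests were chosen with earlier results of these data known. Named were 25 genes taken in any case, the 15 largest rises and 15 largest falls among protein-coding genes with at least 5 CPM and no overlap between groups, the 5 largest called changes of each list, any member of lists of up to 12, and the 10 largest rises and falls in FPKM. Some genes that the rule names are not reported here. Other list members were named after their values were seen. Alternatives were RLE and upper-quartile scaling, DESeq2 1.42.0, other filters, the 6 PC3 libraries alone, no robust estimation, a replicate block, limma 3.58.1 on log2(FPKM + 1), and leaving out each PC3 library.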

Additional observations from a re-analysis of the deposited data

Results flagged for a closer look

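The change from parental to resistant libraries differed between the lines for 10150 genes. The test was of the difference of the 2 changes in 1 model (edgeR's quasi-likelihood test, adjusted p under 0.05). First doses were 0.5 in PC3 and 10 in DU145, and final half-maximal inhibitory concentrations 15 and 1800. Line and degree of selection therefore cannot be told apart, and the p-values measure the spread between libraries. Among the 25 genes described in both lines the change differed for 17, and the values here are the log2 change in PC3 minus that in DU145. The difference was positive for IL6 (4.58), CXCL8 (2.87), CDH2 (2.56), AXL (2.51), STMN1 (1.70) and ZEB1 (1.01). All of these rose in PC3 and fell in DU145. The fall in DU145 was the larger change for IL6 (-3.30), CXCL8 (-2.68) and CDH2 (-2.15), and the rise in PC3 for AXL, STMN1 and ZEB1. The difference was negative for ABCB1 (-8.40), CDH1 (-7.57), SOX9 (-6.61), MMP14 (-3.41), CDKN1A (-2.71), EPCAM (-1.84) and MCL1 (-1.44). In these the change in PC3 was smaller than in DU145 or of the other sign. Smaller differences passed for BCL2L1 (-0.43), TUBB3 (-0.41), VIM (-0.40) and PLAU (-0.22).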

How the results depend on the processing

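The count of changed genes ran from 9737 to 9968 when 1 PC3 library was left out, and in every other setting tried it stayed within 1.5 times 10615, as did the count of differences between lines. The count of at least 2-fold calls ran from 3738 to 3910 without 1 library and was 1561 with limma on log2(FPKM + 1), against 4115; that setting changed the scale, the test and the filter together. With a replicate block within each line 10183 genes were called, the calls of CDH2 (adjusted p = 0.0516), FOXC2, IL6, TCF4 and TNFSF10 ended and CENPA passed. As deviations from their group means, same-numbered parental and resistant libraries correlated at -0.07, 0.11 and -0.14 over 11959 genes. Parental 1 correlated best with resistant 3. Deviations from a mean of 3 libraries are tied to each other, so these values cannot show whether the replicate numbers pair the libraries. Of 42 list medians 11 changed sign under some setting, with no cause tested. Those near 0 ran from -0.18 to 0.051 for the BCL2 family, -0.29 to 0.059 for MAPK feedback, -0.15 to 0.025 for death receptors and caspases, -0.037 to 0.070 for TGF-beta and -0.0080 to 0.096 for CDK inhibitors and cyclins, and that of neuroendocrine markers ran from -0.84 to 0.38. That of keratins (-0.27) ran from -0.58 to 0.44 when 1 PC3 library was left out. That of EMT factors (-0.20) ran from -0.33 to 0.0097, and was 0.70 at 1 CPM in 3 libraries, 0.38 with PC3 alone and 0.29 with limma. At 1 CPM in 3 libraries the median was 0.012 for chemokines (-0.21), -2.49 for leukocyte markers (0.84) and -0.079 for endothelial markers (0.82), the last -0.071 with limma. Of genes that did not pass, ABCC1 ran from -0.025 to 0.031 and ABCG2 from -4.29 to 3.18 without 1 library. Counts of a few reads, as in ABCB1 and ABCG2, set no direction at this depth.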

Other observations

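Several genes with large changes lie outside the groups above. SRGN, serglycin, a proteoglycan of secretory granules, read 102, 105 and 86.3 CPM in parental and 408, 407 and 438 CPM in resistant libraries (2.09 ± 0.13, adjusted p = 1.29e-07), and every resistant library was higher. The metallothionein MT2A, which binds zinc and copper, rose from 149 to 399.6 CPM and the actin-sequestering TMSB10 from 764 to 1076 CPM. SCEL, sciellin of the cornified envelope, rose from 0.303 to 18.6 CPM (5.93 ± 0.28), MYPN, myopalladin of the muscle sarcomere, from 0.677 to 33.1 CPM and the inflammasome-family gene NLRP10 from 0.0208 to 5.35 CPM. The cytokine IL24 rose from 0.078 to 6.63 CPM and its neighbour FCMR, which it overlaps, from 0.108 to 5.86 CPM, so that their reads cannot be told apart.

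Among genes that fell, the junction protein CGNL1 (paracingulin) went from 21.4 to 0.185 CPM (-6.84 ± 0.29), the endothelial lipase LIPG from 13.5 to 0.115 CPM and the synaptic protein CPLX1 (complexin) from 7.88 to 0.0399 CPM. The carrier SLC22A17 fell from 10.2 to 0.0681 CPM and KIAA0040 from 58.9 to 0.525 CPM. In all of these the 3 resistant libraries lay below every parental library, but lack of overlap was a condition for naming the largest falls.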
